A study of Mus musculus with 40 samples.

Results

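The 10 genes Yap1, Wwtr1, Tead1, Ctgf, Cyr61, Ankrd1, Amotl2, Lats2, Ajuba and Axl were followed across 10 lines of 4T1, a mouse mammary carcinoma cell line, each carrying a different short hairpin RNA (shRNA). They were chosen by name, as factors of the YAP and TEAD pathway and genes known to respond to it, and are 10 of the 23480 genes listed in both deposited tables. All 10 were expressed well above the smallest deposited value, so none was left out. The study asked how far hairpins of different design lower mRNAs they were not aimed at. Infection was at a multiplicity of 0.3, followed by about 10 days of drug selection.

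The Slpi table holds hairpin 66708 and the 4 Slpi-directed hairpins Slpi1U1, Slpi1U2, Slpi2 and Slpi4. The Mgp table holds hairpin 88943 and the 4 Mgp-directed hairpins Mgp1, Mgp1U1, Mgp1U3 and Mgp2. Lines with 66708 or 88943 were selected with 1 µg/ml puromycin, and the other 8 with 500 µg/ml hygromycin. By their catalogue-style numbers and their drug, 66708 and 88943 were taken as hairpins of the TRC collection, and the other 8 as designs of the shERWOOD algorithm, whose hairpins sit in a microRNA backbone. No label states this for a single hairpin, and hairpin source, vector and drug coincide, so their effects cannot be told apart. No line without a hairpin was analysed here. Each hairpin has 2 libraries (n = 2), and no label ties them to separate cultures. The p-values therefore reflect the spread between libraries only, which may be technical.

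Counted reads per library came to 12.2 to 28.5 M (Slpi table) and 12.1 to 23.3 M (Mgp table). Ribosomal Rn45s took 2.31 to 2.77% of the reads of 66708, and 0.961 to 2.39% of those in the other 18 libraries. Slpi lay at 46.9 to 61.9 CPM (reads scaled to a library total of 1000000) in the 8 Slpi-directed shERWOOD libraries, 145 to 156 in 66708, 135 to 145 in 88943 and 448 to 613 in the 8 Mgp-directed ones. Mgp lay at 1.06 to 8.42 CPM in the Mgp-directed shERWOOD libraries, 15.4 to 16.2 in 88943, 14.8 to 31.2 in the Slpi-directed ones and 102 to 108 in 66708. Leukocyte markers summed to 3.50 to 8.49 CPM per library and endothelial markers to 0.181 to 0.911 CPM. Nearly all of the leukocyte sum was Cd68, at 3.33 to 8.17 CPM, while Cd3e had at most 1 read in any library.

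YAP, encoded by Yap1, and TAZ, encoded by Wwtr1, are coactivators without a DNA-binding domain of their own. In the nucleus they bind TEAD factors, and the complex drives genes such as Ctgf, Cyr61 and Ankrd1. In the Hippo cascade the MST kinases act upstream of the LATS kinases, which phosphorylate YAP and TAZ. This holds YAP and TAZ in the cytoplasm or marks them for degradation. Stiff matrix, cell spreading and actin tension favour nuclear YAP and TAZ, which act in the growth and invasion of mammary carcinoma cells.

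TEAD factors are known to bind GGAATG, read as CATTCC on the opposite strand. This motif of 6 letters was searched on both strands in the 250 bases before each gene's start in RefSeq's promoters (build GRCm38.p6). Of the 8 genes of the set with an entry, 7 held it, against 3880 of 27025 genes, or 14.4%, in the same length of sequence. The exception was Lats2, and the absence says only that these letters are not in this window. The sites of the downstream genes are printed below because these genes are the readout of the pathway. Each line reads 5′ to 3′ along the gene's strand, with the motif in capitals.
Cyr61: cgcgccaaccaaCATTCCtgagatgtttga
Ankrd1, farther site: gtcactgccaaaGGAATGaccctctcacat
Ankrd1, nearer site: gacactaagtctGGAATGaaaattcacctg
Amotl2: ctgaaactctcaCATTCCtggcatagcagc
Ajuba, farther site: cgttgatggataCATTCCacagtgcccctc
Ajuba, nearer site: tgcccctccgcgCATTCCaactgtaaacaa
Axl: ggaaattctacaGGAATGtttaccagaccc

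The Cyr61 site lies at chr3:145650071-145650100 on the minus strand, 98 bases before the start. Those of Ankrd1 lie at chr19:36120037-36120066 and chr19:36119950-36119979, minus strand, 205 and 118 bases before it. The Amotl2 site is at chr9:102717727-102717756 on the plus strand, 60 bases before the start. In the annotation GENCODE M21 the Ankrd1 windows fall in an exon of a longer transcript, and part of the searched Amotl2 window does too. The Ajuba sites are at chr14:54577830-54577859 and chr14:54577808-54577837, minus strand, and the Axl site is at chr7:25788949-25788978, minus strand, 228 bases before the start. A match describes the sequence and shows neither binding nor a cause.

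Levels between genes were compared as CPM per kilobase of exon, averaged over the 10 hairpins. The length counts all annotated exon bases of a gene, which can exceed those of the expressed transcript. It also counts bases shared with another gene, 42.4% for Lats2, 23.2% for Ctgf and 1.25% for Yap1. How reads on such bases were counted is not given, so the places of Lats2 and Ctgf in the order are uncertain. Axl, a receptor tyrosine kinase, was highest at 161, followed by the secreted matricellular factor Cyr61 at 85.7, the nuclear ankyrin-repeat protein Ankrd1 at 60.8 and Wwtr1 at 54.8. Tead1 was at 33.0, Ctgf at 15.7, Yap1 at 15.7, Amotl2 at 15.2, Ajuba at 14.7 and Lats2 at 11.0. The ranges over hairpins did not overlap between Axl and Cyr61, Wwtr1 and Tead1, Tead1 and Ctgf, or Ajuba and Lats2. Cyr61 was above Ankrd1 in 10 of 10 hairpins, although their ranges overlapped. For the other neighbouring pairs the ranges overlapped and the order changed between hairpins, with the first gene above the next in 5 or 6 of 10. Wwtr1 was the more abundant coactivator mRNA in every line, at 2.76 times Yap1 in Mgp2 to 4.51 times in 88943. In CPM, not divided by length, it was 236 against 165 for Yap1 in Mgp2, and 319 against 137 in 88943. Tead1 made up 71.1 to 75.6% of the summed per-kilobase level of Tead1, Tead2, Tead3 and Tead4.

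Across hairpins the genes differed in how much they varied. Ctgf varied most, with a coefficient of variation of 26.9% over the 10 hairpin means and a 2.21-fold range from Slpi4 to Mgp1U3. Ankrd1 followed at 17.6%, Amotl2 at 14.2%, Wwtr1 at 13.1%, Cyr61 and Lats2 at 12.3% and Ajuba at 9.20%. Yap1, Tead1 and Axl varied by 6.29%, 5.20% and 4.94%. Each gene had between 404 and 22369 reads in a library, so counting error was small beside these differences. The spread between the 2 libraries of a hairpin was not always small. For Yap1 the SD between them ran from 0.395 CPM (66708) to 22.9 CPM (Slpi1U2), beside 9.14 CPM over the 10 hairpin means.

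**Figure D1:**
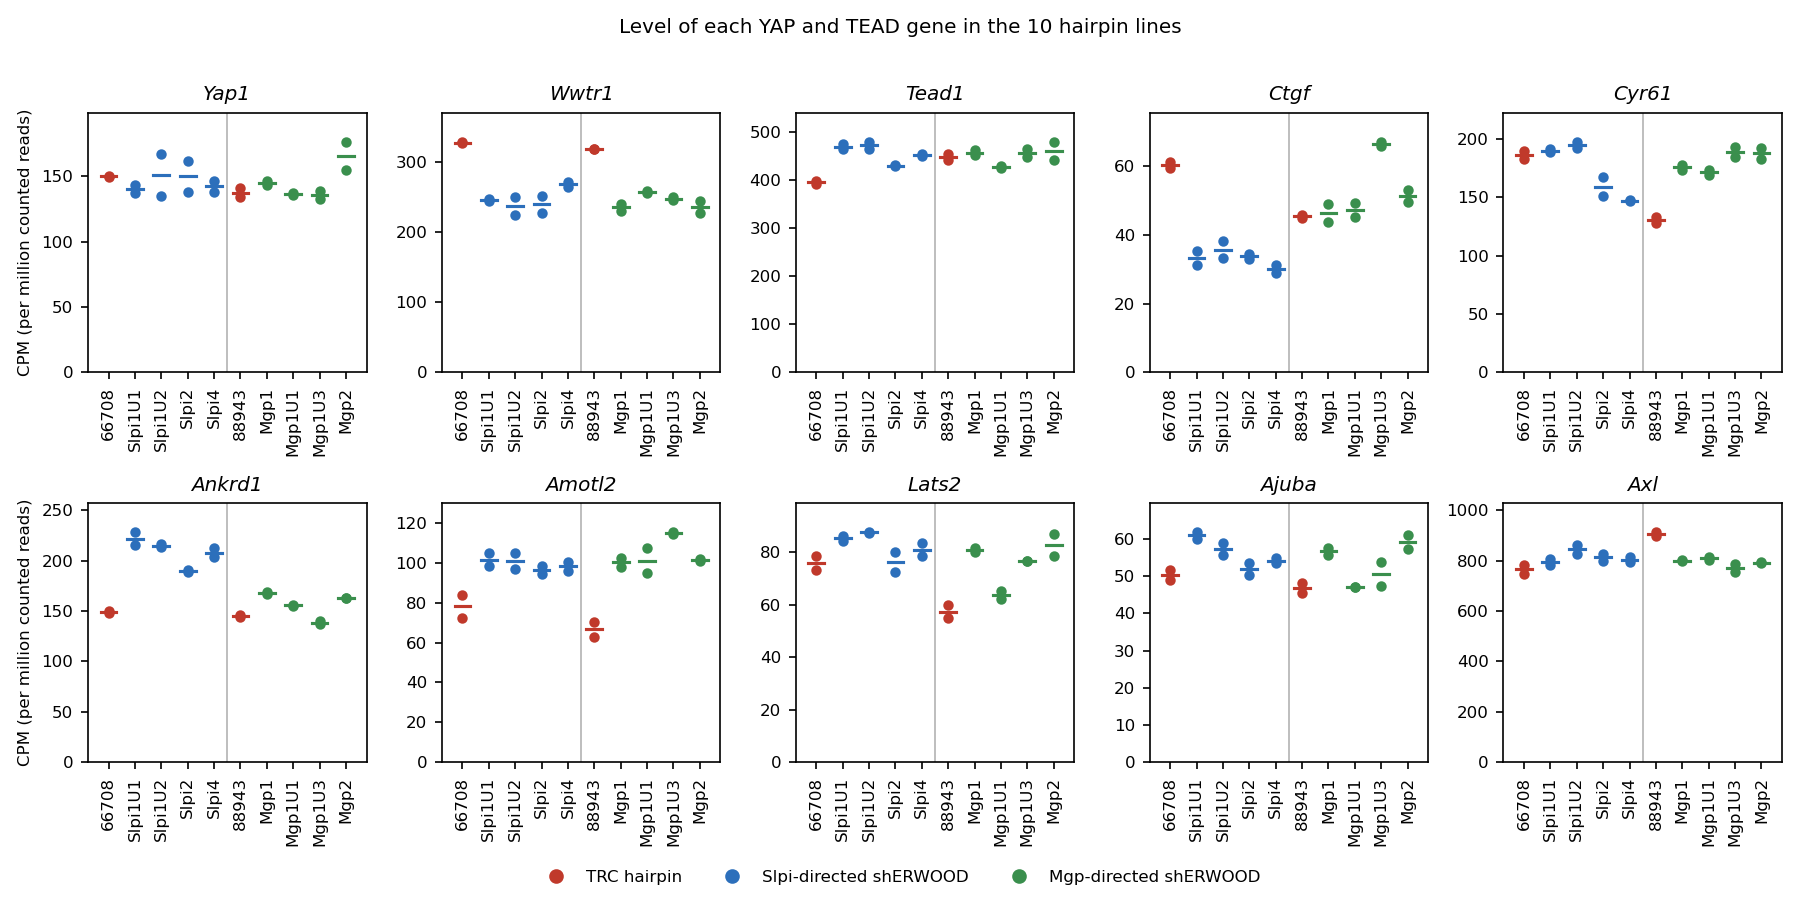
CPM of each gene in each library (points, 2 per hairpin) with the hairpin mean (bar), Slpi table left of the grey line and Mgp table right of it. Wwtr1 was high in both TRC lines, Amotl2 low in both, and Ctgf high in 66708 and Mgp1U3.

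The main comparison set each TRC line against the mean of the 4 shERWOOD lines of its table. It used the deposited log2-like values, on which a doubling that starts at 1000 scaled reads is 0.77 (Slpi table) or 0.75 (Mgp table), and one that starts at 100 is 0.36 or 0.34. Scaled reads are reads divided by the authors' size factor, and folds are ratios of mean scaled reads. Adjusted p-values come from limma, corrected by the Benjamini-Hochberg method across every tested gene, and calls have a value under 0.05.

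In 66708, 3 of the 10 genes rose (Ctgf, Wwtr1 and Cyr61) and 3 fell (Ankrd1, Amotl2 and Tead1). Of all 9489 genes tested, 32.1% were called higher and 23.6% lower. In 88943, 1 gene rose (Wwtr1) and 8 fell (Amotl2, Cyr61, Lats2, Ctgf, Ajuba, Ankrd1, Yap1 and Tead1), where 28.7% of the 9174 genes tested were called higher and 42.0% lower. The median difference of the 10 genes was -0.01 in 66708 beside 0.02 over all genes, and -0.20 in 88943 beside -0.04. Thus in this fit, with libraries as samples, the 66708 counts lie near the background shares, while the 88943 count of lower genes lies above it.

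By position of the libraries, both 66708 libraries lay above all 8 shERWOOD libraries for 2 genes and below them for 3, where 28.3% and 20.4% of all genes did so. Both 88943 libraries lay above for 1 gene and below for 8, where 24.3% and 36.2% of all genes did so. The split of calls over all genes moved with the scaling. In 66708 57.6% of calls were higher under the deposited scaling, 48.3% with library medians set equal, 49.1% with quantile normalization, 53.6% with voom and 37.7% by library totals. In 88943 these shares were 40.6%, 50.3%, 48.4%, 48.3% and 59.6%. With medians set equal, 2541 of 9489 genes were called higher in 66708 and 2717 lower, and 3276 and 3235 of 9174 in 88943. By quantile normalization these counts were 2476 and 2565 in 66708, and 3097 and 3301 in 88943. By voom they were 3511 and 3045 of 12332 in 66708, and 4014 and 4295 of 12295 in 88943. By library totals they were 1984 and 3276 of 9490, and 3892 and 2639 of 9176. In 66708, 3 of the 10 genes were called higher and 3 lower with medians set equal, by quantile normalization and by voom. By library totals 3 were higher and 4 lower. In 88943, 2 of the 10 were higher and 8 lower with medians set equal, and 1 and 8 by voom. By quantile normalization and by library totals 2 were higher and 6 lower in 88943. With each hairpin's mean taken as 1 sample, fewer calls were left in both lines, among the 10 genes and over all genes. That fit holds 1 sample per TRC line. In 88943 the called share of the 10 genes was then not above that of all genes.

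**Figure D2:**
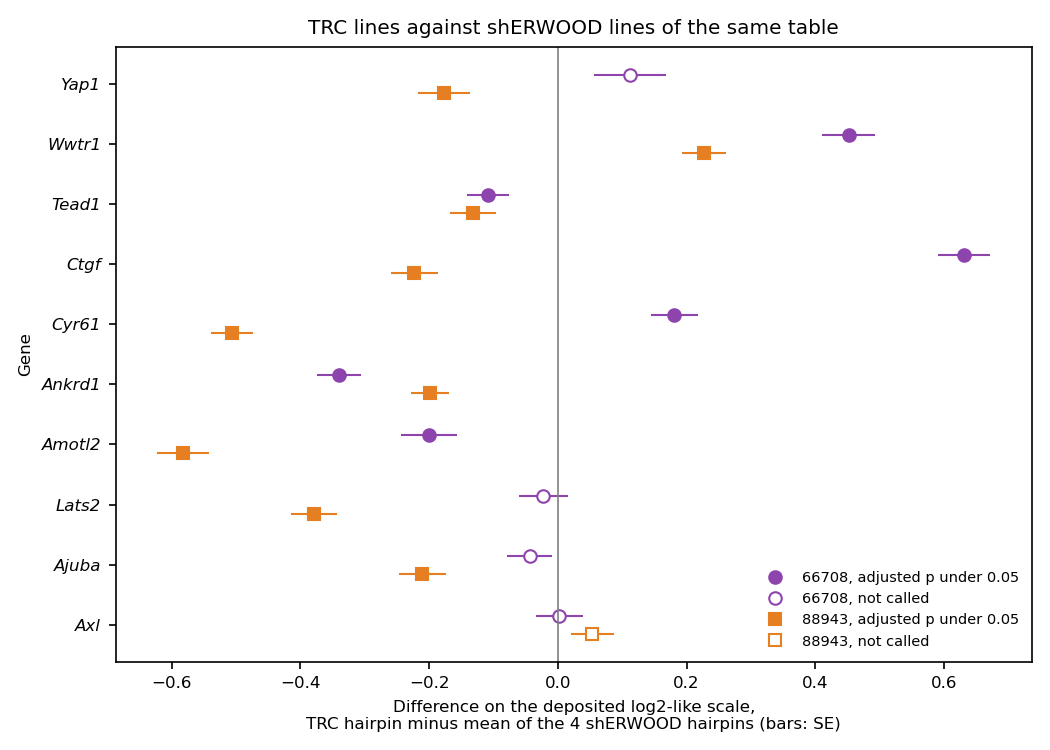
Difference between each TRC line and the mean of its 4 shERWOOD lines on the deposited log2-like scale, with its SE; filled symbols have an adjusted p under 0.05. Ctgf and Cyr61 lie on opposite sides of 0 in the 2 comparisons, while Wwtr1 lies above 0 and Ankrd1 and Amotl2 below 0 in both.

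Wwtr1 (chr3:57455649-57575910, minus strand) encodes TAZ. It stood at 5724 and 5729 scaled reads in 66708, and at 3675, 4031 and 4512 (lowest, median and highest) in the 8 shERWOOD libraries of the Slpi table. In the Mgp table it stood at 5214 and 5198 in 88943 and at 4028, 4409 and 4672 in the shERWOOD libraries. Both TRC lines thus lay above every shERWOOD library of their table. The difference was 0.45 ± 0.04 (SE, n = 2 against 8 libraries) or 1.41-fold in 66708 (limma adjusted p = 4.36e-07), and 0.23 ± 0.03 or 1.19-fold in 88943 (limma adjusted p = 2.32e-05).

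Yap1 (chr9:7931999-8004596, minus strand) encodes YAP. It was at 2623 and 2600 scaled reads in 66708, within the shERWOOD range of 2202 to 2697 around a median of 2318. In 88943 it was at 2301 and 2174, below all 8 shERWOOD libraries, which ran from 2408 to 3159 around 2520. The 66708 difference of 0.11 ± 0.06 was not called (limma adjusted p = 0.105), but it was without library 1 of Slpi1U2 (limma adjusted p = 0.0176). Yap1 fell 1.16-fold in 88943 (-0.18 ± 0.04, limma adjusted p = 0.000972), a call that was lost by library totals (limma adjusted p = 0.142), by quantile normalization (0.241) and with hairpin means as samples (0.125).

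Tead1 (chr7:112679318-112906807, plus strand) encodes the TEAD factor with the highest per-kilobase mRNA level here. Its scaled reads were 6871 and 6930 in 66708 against 7057 to 7740 around 7569 in the shERWOOD libraries. In 88943 they were 7237 and 7380, against 7677 to 8602 around 8072. Both TRC lines lay just under the shERWOOD range. Tead1 was 1.08-fold lower in 66708 (-0.11 ± 0.03, limma adjusted p = 0.0107) and 1.10-fold lower in 88943 (-0.13 ± 0.04, limma adjusted p = 0.00397). The 88943 difference turned to 0.05 under quantile normalization and was -0.01 by library totals, both not called. Without library 1 or library 2 of 66708 the limma adjusted p was 0.0905 or 0.0579, and without library 1 of 88943 it was 0.0629. With hairpin means as samples neither call was left (limma adjusted p = 0.219 in 66708 and 0.184 in 88943).

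Ctgf (annotated as Ccn2, chr10:24595442-24598683, plus strand) encodes connective tissue growth factor, a secreted CCN protein and a standard YAP readout. It had 1037 and 1065 scaled reads in 66708, and 479, 541 and 615 (lowest, median and highest) in the Slpi table's shERWOOD libraries. In 88943 it had 735 and 746, just under the shERWOOD libraries at 775, 889 and 1209. Ctgf thus rose 1.93-fold in 66708 (0.63 ± 0.04, limma adjusted p = 1.42e-08) and fell 1.28-fold in 88943 (-0.22 ± 0.04, limma adjusted p = 5.43e-05). The 88943 call was lost with hairpin means as samples (limma adjusted p = 0.144). Its exons share 23.2% of their bases with Gm15270 on the opposite strand, and the strand setting of the counting is not given in the sources used here. Reads on the shared bases therefore cannot be assigned to either gene.

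Cyr61 (annotated as Ccn1, chr3:145646976-145649981, minus strand) is the closest relative of Ctgf in the set and shares no exon bases with another gene. It had 3315 and 3179 scaled reads in 66708, while the shERWOOD libraries ran from 2436 to 3183 around 2912. Library 2 of 66708 lay inside that range, at the level of Slpi1U2. The 88943 libraries, at 2093 and 2160, lay well under the 3020 to 3506 of the Mgp table's shERWOOD libraries around 3216. Cyr61 rose 1.15-fold in 66708 (0.18 ± 0.04, limma adjusted p = 0.000683), a call lost with hairpin means as samples (limma adjusted p = 0.241). It fell 1.52-fold in 88943 (-0.51 ± 0.03, limma adjusted p = 1.60e-09).

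Ankrd1 (chr19:36111961-36120099, minus strand) encodes a cofactor that moves between sarcomere and nucleus in muscle and is among the most used YAP targets. In 66708 it had 2623 and 2580 scaled reads, against 3099, 3486 and 3696 in the shERWOOD libraries. In 88943 it had 2387 and 2341, against 2487, 2851 and 2998. The gap was wide in the Slpi table and narrow in the Mgp table, where the nearest shERWOOD line was Mgp1U3. Ankrd1 fell 1.31-fold in 66708 (-0.34 ± 0.03, limma adjusted p = 1.17e-06) and 1.18-fold in 88943 (-0.20 ± 0.03, limma adjusted p = 2.06e-05). With hairpin means as samples the 88943 call was lost (limma adjusted p = 0.0739).

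Amotl2 (chr9:102716672-102733418, plus strand), a YAP target whose angiomotin-like product holds YAP at junctions, was lower in both TRC lines. It had 1268 and 1455 scaled reads in 66708, against 1558, 1608 and 1711 in the shERWOOD libraries. In 88943 it had 1029 and 1145, against 1695, 1810 and 2097. No TRC library reached the shERWOOD range. The drop was 1.19-fold in 66708 (-0.20 ± 0.04, limma adjusted p = 0.00129) and 1.72-fold in 88943 (-0.58 ± 0.04, limma adjusted p = 3.24e-09). Without library 1 of 66708 the first was not called (limma adjusted p = 0.0755).

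Lats2 (chr14:57689662-57758388, minus strand) encodes a kinase that inactivates YAP and is itself a YAP target. It had 1278 and 1365 scaled reads in 66708, inside the shERWOOD range of 1196 to 1431 around 1371. In 88943 it had 896 and 972, below the shERWOOD libraries at 1111, 1401 and 1539. The 66708 difference of -0.02 ± 0.04 was not called (limma adjusted p = 0.636), and in 88943 Lats2 fell 1.45-fold (-0.38 ± 0.04, limma adjusted p = 1.27e-07). Its exons share 42.4% of their bases with Gm49361 on the same strand, and how the counting treated such reads is not given in the sources used here.

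Ajuba (chr14:54567472-54577558, minus strand) encodes a LIM-domain adaptor that restrains LATS kinases. It had 858 and 900.2 scaled reads in 66708, within the shERWOOD range of 835 to 1015 around 909. In 88943 it had 742 and 783, below the shERWOOD libraries at 842, 980 and 1081. Ajuba fell 1.25-fold in 88943 (-0.21 ± 0.04, limma adjusted p = 8.12e-05), a call not kept with hairpin means as samples (limma adjusted p = 0.0528). The 66708 difference was -0.04 ± 0.03 (limma adjusted p = 0.302), and by library totals it was called at -0.11 (limma adjusted p = 0.0214).

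Axl (chr7:25757273-25788705, minus strand) encodes a receptor for GAS6 that YAP is known to raise in several cancers. It had 13069 and 13634 scaled reads in 66708, within the shERWOOD range of 12790 to 13916. In 88943 it had 14624 and 14849 against 13706, 14176 and 14669, a range that overlaps. Neither difference was called (0.00 ± 0.04 in 66708, limma adjusted p = 0.963; 0.05 ± 0.03 in 88943, limma adjusted p = 0.158). The 88943 difference was called as higher with medians set equal (0.10), by library totals (0.18) and by quantile normalization (0.29), with limma adjusted p = 0.0171, 0.000145 and 1.65e-06.

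Whether the TRC lines differed from each other in these differences was tested directly, in 1 voom and limma model over all 20 libraries that was added after the first results were seen. On the log2 scale of that model the 66708 contrast minus the 88943 contrast was 1.29 ± 0.08 for Ctgf (limma adjusted p = 3.71e-12), the largest of the 10. It was 0.81 ± 0.05 for Cyr61 (limma adjusted p = 2.02e-11), 0.53 ± 0.08 for Amotl2 and 0.51 ± 0.07 for Lats2. Ctgf and Cyr61 moved in opposite directions in the 2 contrasts, while Amotl2 was lower in both and more so in 88943. In all, 8 of the 10 genes differed between the contrasts, and 68.2% of all genes did. Tead1 (0.03 ± 0.05) and Axl (-0.05 ± 0.04) were not called (limma adjusted p = 0.644 and 0.278).

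Variation between shERWOOD lines was described by setting each against the mean of the other 3 of its table. The contrasts of a gene share the same lines, so its calls in different lines of a table are not independent. Among Slpi-directed lines 5 of 40 such values were called. Cyr61 gave 3 of them: it was 1.13-fold higher in Slpi1U1 (limma adjusted p = 0.0447), 1.16-fold higher in Slpi1U2 (0.0206) and 1.21-fold lower in Slpi4 (0.00255). Ankrd1 was 1.12-fold lower in Slpi2 (0.0310) and Wwtr1 1.13-fold higher in Slpi4 (0.0393). By line this is 1 of 10 genes in Slpi1U1, where 1.8% of all genes were called, 1 in Slpi1U2 (1.35%), 1 in Slpi2 (3.65%) and 2 in Slpi4 (5.74%).

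Among Mgp-directed lines 10 of 40 values were called. Mgp1U3 had the largest, with Ctgf at 1198 and 1209 scaled reads, above the 775 to 941 of the other 6 shERWOOD libraries and 1.40-fold higher (0.33 ± 0.04, limma adjusted p = 8.87e-05). In the same line Amotl2 was 1.16-fold higher (limma adjusted p = 0.0145) and Ankrd1 1.15-fold lower (0.00265), so these targets did not move together. Lats2 and Ajuba were 1.25-fold and 1.17-fold lower in Mgp1U1 (limma adjusted p = 0.00133 and 0.0285) and 1.12-fold and 1.14-fold higher in Mgp2 (0.0329 and 0.0242). Yap1 was 1.18-fold higher in Mgp2 (0.00526). Ctgf was 1.20-fold lower in Mgp1 (0.0153) and Ankrd1 1.09-fold higher (0.0480). Thus 2 genes were called in Mgp1 (7.5% of all genes), 2 in Mgp1U1 (5.56%), 3 in Mgp2 (17.9%) and 3 in Mgp1U3 (15.1%).

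These counts depended on the filter and on single libraries. Without the filter 1 value was called among Slpi-directed and 5 among Mgp-directed lines. For the Slpi-directed lines 3 were called without library 1 or 2 of 66708 or library 1 of Slpi1U2, 1 without library 2 of Slpi1U2 or of Slpi2, 0 without library 1 of Slpi4 and 2 without its library 2. For the Mgp-directed lines 6 were called without library 1 of Mgp1 or of Mgp1U1, 5 without library 2 of either, and 15 without library 2 of Mgp2.

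**Figure D3:**
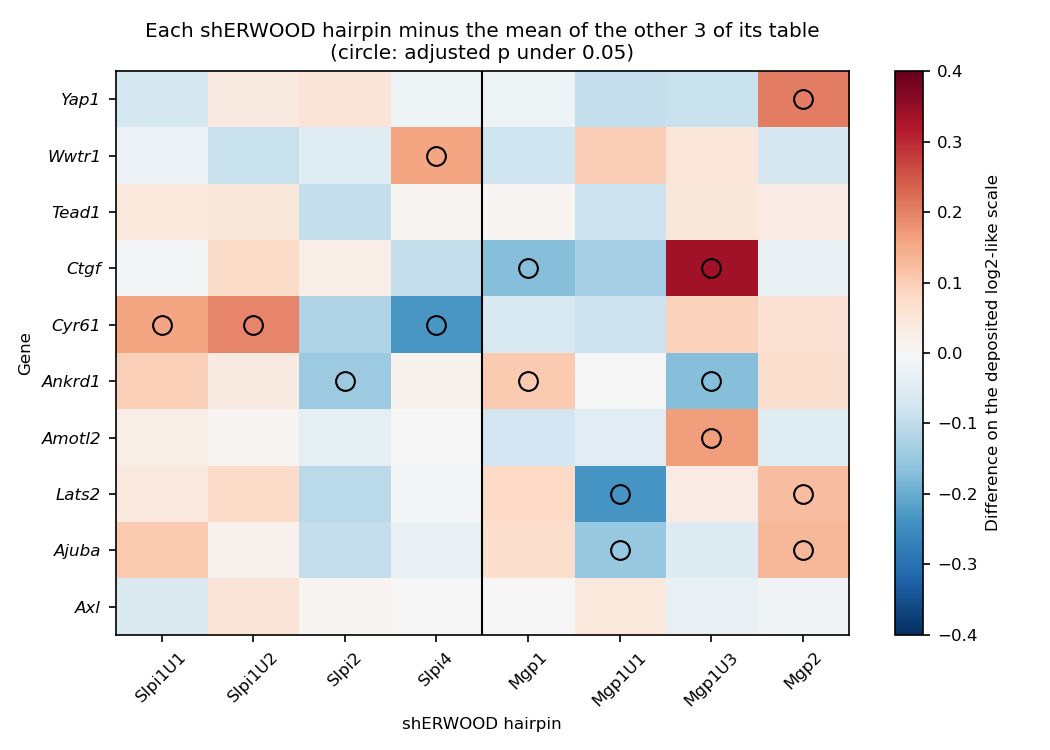
Each shERWOOD line minus the mean of the other 3 of its table on the deposited log2-like scale (colour, red higher and blue lower); circles mark an adjusted p under 0.05. The strongest value is Ctgf in Mgp1U3 at 0.33, and Tead1 and Axl have no circle.

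The tables were normalized separately, so levels of Slpi-directed and Mgp-directed shERWOOD lines were set side by side as CPM, with no test. Ctgf lay at 28.9, 33.1 and 38.1 CPM (lowest, median and highest library) in the Slpi-directed lines and at 43.7, 49.5 and 67.0 in the Mgp-directed ones. The means were 33.2 ± 2.31 and 52.9 ± 9.34 (SD, n = 4 hairpins), 1.59-fold higher in the Mgp-directed lines. Ankrd1 went the other way, at 189, 213 and 228 CPM against 137, 159 and 169, with means of 209 ± 13.7 and 156 ± 12.8, 1.34-fold higher in the Slpi-directed lines. The libraries of the groups did not overlap for either gene. For Ankrd1 this is 1 of 10 genes with all Slpi-directed libraries above, where 17.3% of 8828 genes were so, and for Ctgf 1 of 10 below, where 9.19% were.

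The other 8 genes overlapped between these groups, Cyr61 among them at 147 to 197 against 169 to 193 CPM. The ratio of Ankrd1 to Ctgf was 5.63 to 6.91 in the 4 Slpi-directed lines and 2.08 to 3.63 in the 4 Mgp-directed ones, with 2.48 in 66708 and 3.19 in 88943. The high Ctgf of 66708 within its table, at 60.3 CPM, was inside the range of the Mgp-directed lines, and its Ankrd1, at 149 CPM, was too. Scaled over all 20 libraries together, the Slpi-directed level was 0.588 of the Mgp-directed one for Ctgf and 1.25 for Ankrd1, still without overlap.

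The upstream arm of the pathway was read from a list of 18 Hippo kinases and scaffolds, of which 15 passed the filter in each table. In 88943, 0 of the 15 rose and 10 fell, where 28.7% of all genes rose and 42.0% fell, with a median of -0.17 beside -0.04 over all genes. With hairpin means as samples fewer were called lower. Under the other scalings the lower count was 7 to 10, with 2 genes higher by quantile normalization and 1 by library totals. At an unadjusted p under 0.05 in limma 0 were higher, and voom called 0 higher too. By library totals 3892 of all 9176 genes rose and 2639 fell. Counts of this and the following lists under other scalings stand beside the counts over all genes given above for that scaling. Over all genes, too, fewer were called with hairpin means as samples. Frmd6, a FERM protein upstream of the kinases, fell 1.58-fold (1508 and 1551 scaled reads against 1991 to 2821), and Mob1b, a LATS coactivator, fell 1.48-fold. The kinase genes Stk4 and Lats1 fell 1.35-fold and 1.23-fold. In 66708, 4 of 15 rose and 3 fell, near the shares over all genes of 32.1% and 23.6%. The scaffold Sav1 was 1.29-fold and Lats1 1.14-fold higher, and the kinase genes Stk3 and Stk4 were 1.17-fold and 1.16-fold lower. Under other scalings 1 to 4 rose and 3 to 5 fell, and with hairpin means as samples fewer were called.

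Of 14 partners that bind YAP, TAZ or TEAD, 11 were tested in 66708, where 5 rose and 0 fell (32.1% and 23.6% of all genes), and 0 were lower in limma at an unadjusted p under 0.05 or by voom. Amotl1, an angiomotin relative of Amotl2, and Limd1, an Ajuba relative, were 1.21-fold and 1.19-fold higher. The TEAD corepressor gene Vgll4 was 1.43-fold and Tead4 1.22-fold higher. By quantile normalization or library totals 4 rose and 2 fell. In 88943, 3 of 10 rose and 5 fell (28.7% and 42.0% of all genes). By either of those scalings 3 rose and 2 fell, and with hairpin means as samples fewer were called. Ywhaq, which encodes a YAP-anchoring adaptor protein, fell 1.35-fold and Limd1 1.23-fold, while Amot rose 1.23-fold.

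The list of 15 other genes reported as YAP and TAZ targets did not move one way. In 66708, 2 of 10 tested genes rose and 4 fell (32.1% and 23.6% of all genes), all by under 1.3-fold. Under other scalings 0 to 2 were higher and 4 to 6 lower, and with hairpin means as samples fewer were called in either direction. In 88943, 4 of 9 rose and 3 fell (28.7% and 42.0% of all genes). Under other scalings 4 to 6 were higher and 2 to 3 lower, and with hairpin means as samples fewer were called in either direction. Gadd45a, which also answers DNA damage and stress, was highest in 88943 at 1115 and 1179 scaled reads against 193 to 256 (5.21-fold, limma adjusted p = 2.04e-13). Nuak2 rose 1.46-fold in 88943, while Nt5e, the ectonucleotidase CD73, fell 1.39-fold there and Crim1 1.22-fold.

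Actin and SRF genes share many stimuli with YAP targets. Of 10 tested, 4 rose and 0 fell in 66708 (32.1% and 23.6% of all genes), and 2 rose and 5 fell in 88943 (28.7% and 42.0%). Thrombospondin gene Thbs1 had 3710 and 4076 scaled reads in 66708 against 2087 to 2996 (1.55-fold higher), and 1915 and 2070 in 88943 against 2933 to 4530 (1.90-fold lower). Fhl2, a LIM-domain cofactor, was 1.26-fold higher in 66708, and Srf, Actn1 and Tpm1 were 1.46-fold, 1.31-fold and 1.26-fold lower in 88943. Under other scalings 2 to 4 rose and 2 to 3 fell in 66708, and 3 to 4 rose and 4 to 5 fell in 88943. With hairpin means as samples fewer were called in both lines. Under the deposited scaling 2 were lower in 66708 at an unadjusted p under 0.05, and voom called 2 lower.

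Of 8 further CCN genes and AXL partners, 3 passed the filter in each table. Wisp1, another CCN gene, rose in both TRC lines, 1.42-fold in 66708 and 1.98-fold in 88943, where Ctgf and Cyr61 fell. Tyro3, a sister receptor of AXL, fell 1.62-fold in 66708 and rose 1.26-fold in 88943. The AXL ligand gene Gas6 had at most 1 read in any library, while Pros1, which encodes a ligand of the sister receptors, lay at 16.7 to 23.1 CPM.

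**Figure D4:**
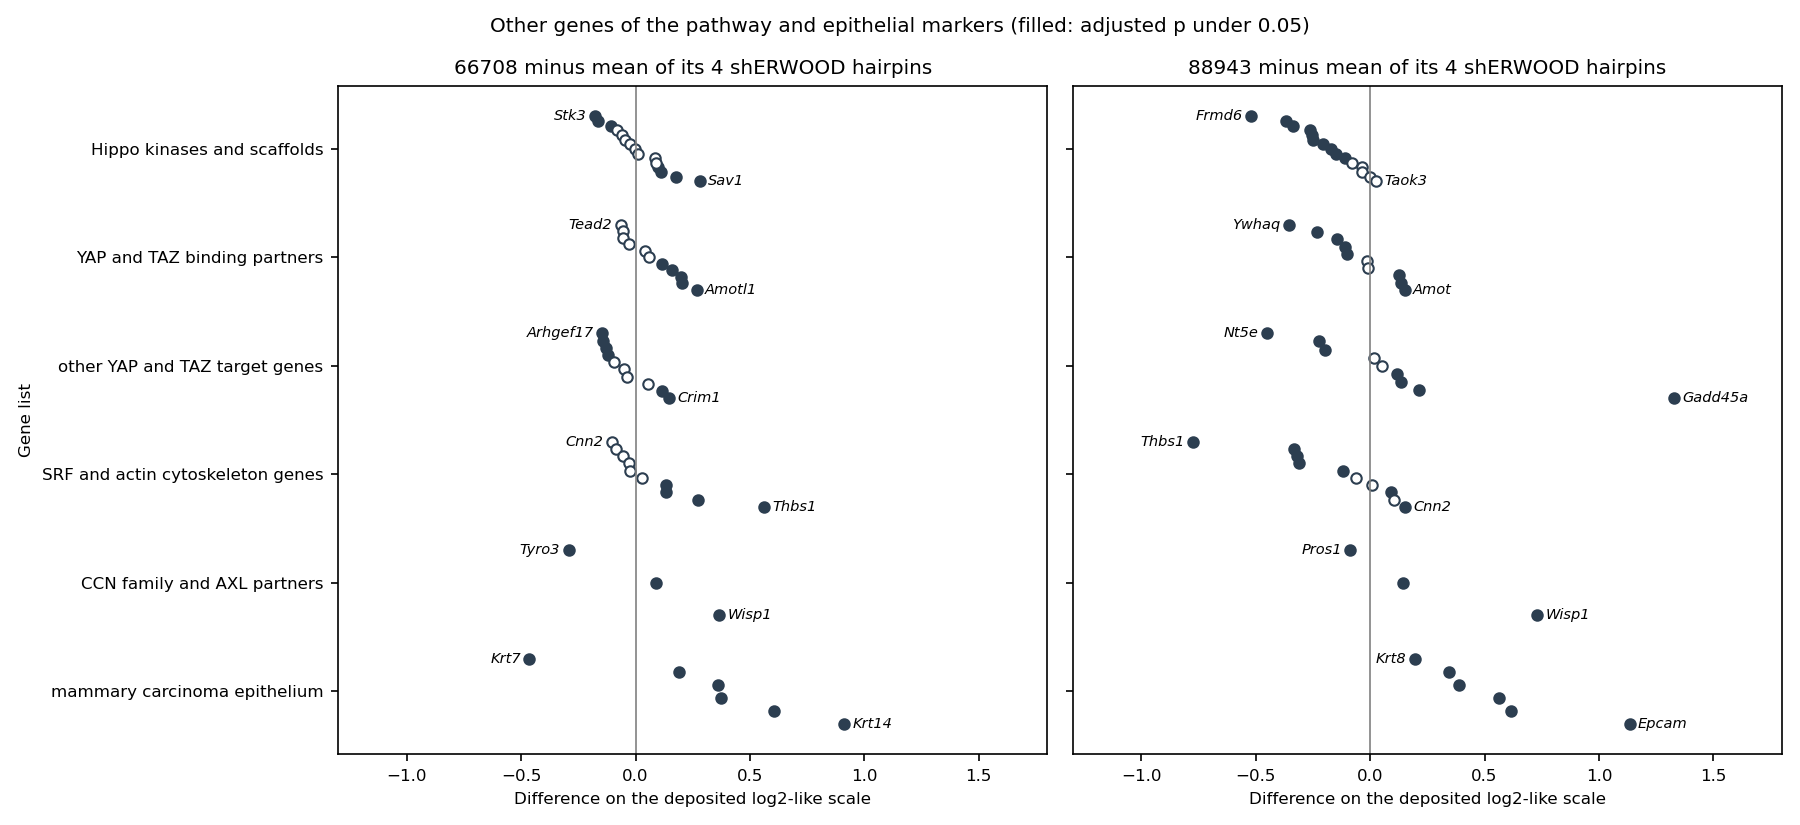
Differences of each TRC line from its 4 shERWOOD lines for the tested genes of 6 lists on the deposited log2-like scale; filled points have an adjusted p under 0.05, and the lowest and highest gene of each list is named. In 88943 the Hippo kinases and scaffolds lie mostly below 0 and Gadd45a stands at 1.33; epithelial markers lie mostly above 0 in both lines.

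Epithelial markers of the carcinoma cells moved with the same contrasts. In 88943 all 6 were called higher, where 28.7% of all genes were, Epcam most at 2.73-fold, and their summed level was 2522 to 2530 CPM against 1519 to 1695 in the Mgp-directed libraries. In 66708, 5 of 6 were higher (32.1% of all genes), Krt14 most at 3.67-fold, and Krt7 was 1.44-fold lower, with sums of 2239 to 2279 CPM against 1928 to 2064. These counts were the same under every scaling tried, and with hairpin means as samples fewer were called higher in both lines. Of 4 fibroblast markers only Pdgfra was tested, and it was 1.70-fold higher in 88943. The part of these differences, and of the Rn45s share, in the values of the 10 genes was not tested.

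Genes with a pattern most like Cyr61 were found by Pearson's r of log2(CPM + 1) over the 10 hairpin means, among 8818 genes with at least 10 CPM on average. The highest were Zfp335 (0.93), Anxa11 (0.91), Eed (0.90), Atg16l1 (0.89) and Tuba4a (0.88), and the lowest were Rbbp8 (-0.91), Irf2bp2 (-0.91) and Pnrc2 (-0.88). Without the 2 hairpins farthest from the median, 88943 and Slpi4, the median r of the 5 highest went from 0.90 to 0.66. Within the set r with Cyr61 was 0.68 for Lats2, 0.62 for Amotl2, 0.54 for Ajuba, 0.35 for Yap1 and 0.30 for Ctgf. It was 0.13 for Ankrd1, 0.12 for Tead1, -0.47 for Wwtr1 and -0.66 for Axl. Without those 2 hairpins r was 0.56 for Lats2, 0.46 for Ajuba, 0.41 for Tead1, 0.25 for Ctgf and 0.12 for Wwtr1. It was 0.11 for Yap1, 0.10 for Amotl2, 0.08 for Ankrd1 and -0.15 for Axl. The values of Amotl2, Yap1, Wwtr1 and Axl thus rest on them. With scaling over all 20 libraries r was 0.75 for Lats2, 0.71 for Amotl2, -0.33 for Axl and -0.63 for Rbbp8. The points share each library's total, and 88943 weighs on all of these values.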

How the data were processed

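The values used were deposited by the authors as 2 tables of variance-stabilized expression on a log2-like scale, 10 libraries each. Bowtie2, HTSeq, DESeq and mm10 are named per the submitters' processing notes, while no source used here gives the counting annotation or strand setting. Inverting the transformation gave whole reads for 100% of the deposited values (tolerance 0.001). All 20 columns were mapped to hairpins by name, but not to single samples of the 40 in the labels. Genes with a mean at least 1 unit above the smallest value were tested with limma 3.58.1 in R 4.3.3 (intensity trend, two-sided, hairpin means model). Calls have a Benjamini-Hochberg adjusted p under 0.05, corrected across all of them. The script was tested on simulated data. CPM use the recovered library totals. Named genes are the 10 of the set, up to 4 called genes per list with the largest differences, and 5 highest and 3 lowest r with Cyr61. Gas6, Mertk, Cd68, Cd3e and the other Tead genes were named after their values were seen. The genes and lists were chosen with earlier results of these data known. Gene positions are from GENCODE M21 (GRCm38), and sequences from RefSeq GRCm38.p6. Alternatives were other scalings, no filter, voom, replicate block, hairpin means and leaving out each library; library totals and the difference of the contrasts were chosen after seeing the data.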

Additional observations from a re-analysis of the deposited data

Results flagged for a closer look

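For 8 of the 10 genes the 66708 difference from its shERWOOD lines was unlike the 88943 difference in a test of the difference itself (voom and limma over all 20 libraries, log2 scale, 66708 contrast minus 88943 contrast). The values were 1.29 for Ctgf, 0.81 for Cyr61, 0.53 for Amotl2, 0.51 for Lats2, 0.35 for Yap1, 0.26 for Ajuba, 0.24 for Wwtr1 and -0.15 for Ankrd1. Over all genes 68.2% passed the same test. Ctgf and Cyr61 had opposite signs in the 2 contrasts, as had Yap1, whose 66708 difference was not called. Each set of shERWOOD lines was directed at another gene, so a difference between the contrasts can come from either TRC line or from either set.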

How the results depend on the processing

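With hairpin means as samples, 3042 genes in place of 5285 were called in 66708 and 4151 in place of 6490 in 88943, and 4 of the 10 genes in place of 9 were called in 88943. Fewer samples entered that fit, and its SE also differed. For Ctgf in 88943 the SE was 0.117 in place of 0.0369, and for Yap1 in 66708 it was 0.0572 in place of 0.0565. Why calls were lost was not tested. Of 340 single-gene values under the alternatives, 311 kept direction and side of the threshold, 14 lost the call, 5 gained it and 10 changed sign. Of these 10 only Tead1 in 88943, at 0.0451 under quantile normalization, had been called. The others were near 0 and not called under either setting: Axl in 66708 was -0.0247 with medians set equal, -0.0588 by quantile normalization, -0.0839 by library totals and -0.0272 to 0.0318 without any 1 library, and Lats2 in 66708 was -0.0589 to 0.0135 without any 1 library. Of 90 ratios of Slpi-directed to Mgp-directed level 2 moved by more than the spread, Tead1 and Axl, with scaling over all 20 libraries. Calls in single shERWOOD lines were 1 in place of 5 (Slpi table) and 5 in place of 10 (Mgp table) without the filter, which tests more genes. Leaving out 1 library gave 0 to 4 and 5 to 15 such calls. The median r with Cyr61 was 0.66 without 88943 and Slpi4; the cause was not tested. In the test of the difference between the contrasts 7 or 8 genes were called without any 1 library.

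With the replicate number as a block, 5199 genes were called in 66708 and 6595 in 88943, 6 and 9 of the 10 genes were called, and 4 and 11 values in single shERWOOD lines, so the replicate block moved no count by over 1.5 times. Deviations of same-numbered libraries correlated at -0.53 to 0.55 in the Slpi table and -0.17 to 0.28 in the Mgp table (10 pairs each). Values of both signs do not settle whether the numbers pair libraries. In the Slpi table the Rn45s share was higher in library 2 than in library 1 of each shERWOOD line, and lower in 66708. In the Mgp table the order was mixed. Whether same-numbered libraries share a batch was not tested. Genes under the filter were not tested, such as Gas6 (0 to 1 read in a library), Tead3 (14 to 45) and Mertk (22 to 124).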
